A study of Mus musculus with 4 samples.

Results

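Lymph node cluster 3 is 1 of the 8 groups into which the authors' deposited table sorts regulatory T (Treg) cells of the lymph node. Its cells were taken by that cluster number alone. It held 430 of the 3963 lymph node (LN) cells and of the 14875 cells of the whole series, 137 in the library labelled ICOS WT and 293 in the library labelled ICOS FC. Its working name rests on the genes Gbp2b and Gpr83, with Bcl2, Gata1, Sh3bp5 and Treml2 as further markers.

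The study sorted YFP+ Treg cells, which also carried CD4 and TCRβ, from C57BL/6 mice at more than 95% purity. Both LN groups came from cervical draining nodes 1 day after oxazolone, a hapten that provokes contact hypersensitivity of the skin. One group was titled ICOS WT and the other ICOS FC, with the genotype given as ICOS-deficient; ages, the driver of YFP and which part of Icos is deleted are not stated in the labels. Each group was 1 library, with no record of how many mice it pooled, so no difference below has a replicate check and nothing was tested. The cell table's entries Control and KO were read as ICOS WT and ICOS FC from the words alone. Spleen cells taken at steady state from mice of both genotypes enter only where they are named.

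Treg cells hold immune responses in check, and their identity depends on the transcription factor Foxp3. Resting Treg cells circulate through lymph nodes with homing receptors such as Ccr7, rely on IL-2 and on survival factors of the BCL2 family, and express little of what effector Treg cells make, such as granzyme B. ICOS, a relative of CD28, is a costimulatory receptor that rises on activated T cells and stands high on effector Treg cells. Guanylate-binding proteins, the family of Gbp2b, are large GTPases that interferons induce and that act in defence inside the cell.

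Gbp2b and its neighbour Gbp2 lie in the same orientation on chromosome 3 of the mouse build GRCm38.p6, at chr3:142594847-142619179 and chr3:142620602-142638008 on the plus strand. Their promoters are printed because Gbp2b is the marker that sets cluster 3 apart from its nearest cluster, and because Gbp2 was also higher in cluster 3 than in the other LN cells. Each stretch runs 5′ to 3′ from 250 bases before to 50 bases after the RefSeq start on GRCm38.p6. It spans chr3:142594597-142594896 for Gbp2b and chr3:142620413-142620712 for Gbp2. For Gbp2 the RefSeq start lies inside the gene span given above. Capitals mark a match to GAAANNGAAA, the letters of an interferon-stimulated response element, on either strand.
Gbp2b: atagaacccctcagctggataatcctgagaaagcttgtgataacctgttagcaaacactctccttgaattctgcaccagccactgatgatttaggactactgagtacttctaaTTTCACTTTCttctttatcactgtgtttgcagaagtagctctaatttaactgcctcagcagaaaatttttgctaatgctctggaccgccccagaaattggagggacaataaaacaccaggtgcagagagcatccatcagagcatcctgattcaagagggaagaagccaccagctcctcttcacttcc
Gbp2: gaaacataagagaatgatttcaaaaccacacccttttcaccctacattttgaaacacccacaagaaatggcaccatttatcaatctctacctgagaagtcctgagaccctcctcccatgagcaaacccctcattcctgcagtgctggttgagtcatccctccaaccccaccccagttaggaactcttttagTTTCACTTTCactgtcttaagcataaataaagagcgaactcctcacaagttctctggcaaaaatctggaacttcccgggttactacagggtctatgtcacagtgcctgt
Both promoters hold 1 such match, with the same 10 letters TTTCACTTTC. It starts 137 bases before the RefSeq start of Gbp2b and 59 bases before that of Gbp2. In Gbp2 the match therefore lies within the gene span given above. Of 32851 RefSeq promoters of this length, 3.44% hold a match. The letters of a gamma-activated site, TTCNNNGAA, were searched on both strands as well; they are in neither window and in 8.30% of all promoters. A promoter was at hand for 4 of the other 5 markers, all but Treml2, and none of the windows of Gpr83, Bcl2, Gata1 and Sh3bp5 holds either set of letters. Such matches describe the sequence only. The 3' ends of the 2 neighbours can be told apart: of the 451 words of 50 bases in the last 500 bases of the main transcript of Gbp2b, and likewise of Gbp2, 0 occur in a transcript of another gene.

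The cells of cluster 3 carried 1069567 UMIs (unique molecular identifiers, by which captured transcripts are counted) in the ICOS WT library and 2469800 in the ICOS FC library. A gene with 0 UMIs there could still have had 2.80 and 1.21 counts per 1000000 UMIs (CPM), the level of 3 UMIs per library. UMI totals per cell ran from 502 to 24247 with a median of 7602 under ICOS WT, and from 808 to 54754 with a median of 7407 under ICOS FC. Most totals belonged to a single cell: there were 420 different totals, of which 411 were carried by 1 cell, 8 by 2 cells and 1 by 3 cells. Under 2000 UMIs lay 9 ICOS WT and 2 ICOS FC cells, between 5000 and 9999 lay 91 and 208, and from 20000 upward lay 2 and 6. The 5 cells with most UMIs held 9.05% of all UMIs of the ICOS WT cells and 9.60% of those of the ICOS FC cells.

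**Figure D1:**
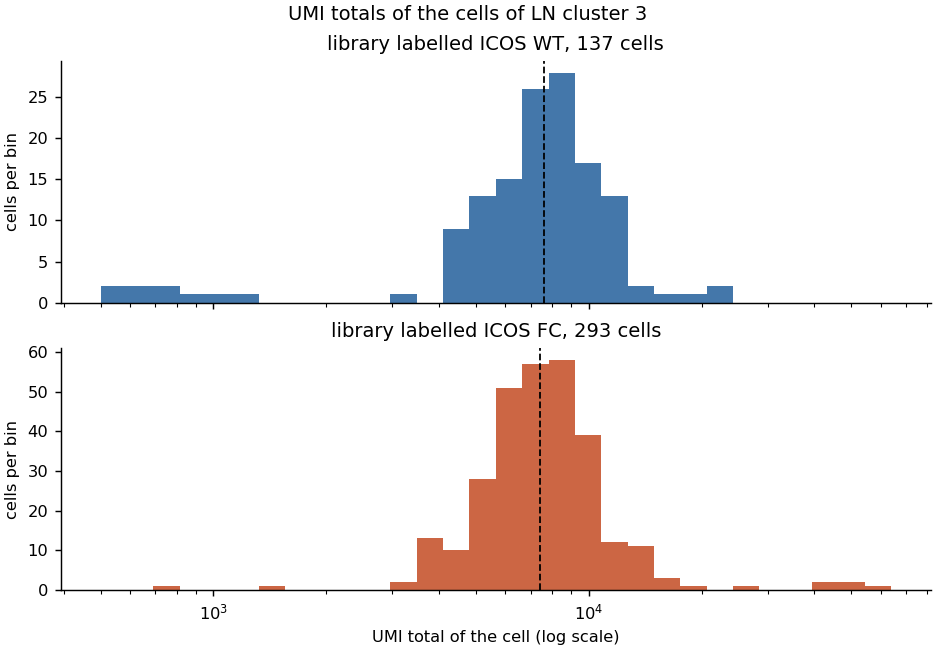
Number of cells of LN cluster 3 (vertical axis) by the cell's UMI total (horizontal axis, log scale), for the library labelled ICOS WT (top) and ICOS FC (bottom); the dashed line is the median. The medians of 7602 and 7407 UMIs lie close together, while 9 ICOS WT cells lie under 2000 UMIs and 6 ICOS FC cells lie at 20000 or more.

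The 2 LN libraries shared 30 cell barcodes, and 8 of these fell in cluster 3. All 8 were ICOS WT cells with 502 to 969 UMIs whose barcode also belonged to an ICOS FC cell of 20644 to 43031 UMIs in cluster 4. Together they held 5622 UMIs. Without shared barcodes the share ratio given below was 2.08, and the gene counts given below were 265 higher and 93 lower between the libraries and 41 higher and 433 lower against the other LN cells. In cluster 3, 85.4% of the ICOS WT and 85.3% of the ICOS FC cells were in G1 by the authors' phase call, and the median share of mitochondrial counts was 3.64% and 3.62%.

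The 6 markers did not separate cluster 3 from all other clusters. Bcl2, an anti-apoptotic protein (chr1:106538178-106714274), stood at 605 CPM under ICOS WT and 610 CPM under ICOS FC, beside 638 and 648 CPM in cluster 1 and 733 and 1001 CPM in cluster 6. Gpr83, a G protein-coupled receptor typical of Treg cells (chr9:14860210-14870789), stood at 145 and 123 CPM, beside 133 and 114 CPM in cluster 1. It was highest in cluster 6, at 209 and 261 CPM. Both were several times lower in clusters 0 and 4, where Bcl2 ran from 44.0 to 87.3 CPM and Gpr83 from 13.0 to 31.8 CPM. Gata1, a transcription factor best known from red cell and platelet precursors (chrX:7959260-7978071), stood at 32.7 and 27.9 CPM in cluster 3 and at 44.2 and 39.9 CPM in cluster 1, with overlapping intervals. Sh3bp5, an activator of the GTPase Rab11 (chr14:31359880-31436078), reached 101 and 106 CPM, beside 92.9 and 76.3 CPM in cluster 1, where the interval under ICOS FC lay below that of cluster 3. Treml2, a receptor of the TREM family (chr17:48299498-48312533), reached 111 and 89.5 CPM in cluster 3 and was highest in cluster 5, at 198 and 146 CPM. So 5 of the 6 markers stood within 1.5-fold of their cluster 3 level in cluster 1.

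Gbp2b had another pattern. It stood at 41.1 CPM (95% interval 29.9 to 55.2) under ICOS WT and 59.1 CPM (49.9 to 69.5) under ICOS FC, against 5.52 and 8.55 CPM in cluster 1. In cluster 0 it stood at 44.5 CPM (38.6 to 51.1) under ICOS WT, an overlapping interval, and at 43.5 CPM (38.2 to 49.3) under ICOS FC, below that of cluster 3. It was low in cluster 4, at 2.16 and 3.08 CPM. In cluster 6 it stood at 16.1 CPM (4.39 to 41.2) and 43.5 CPM (17.5 to 89.7), from 4 and 7 UMIs. Both of these intervals overlapped those of cluster 3. Its UMIs sat in few cells: 44 UMIs in 9 of the 137 ICOS WT cells, 86.4% of them in 5 cells, and 146 UMIs in 40 of the 293 ICOS FC cells, 37.0% of them in 5 cells. Most cells of the cluster therefore carried no UMI of the gene it is named for.

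**Figure D2:**
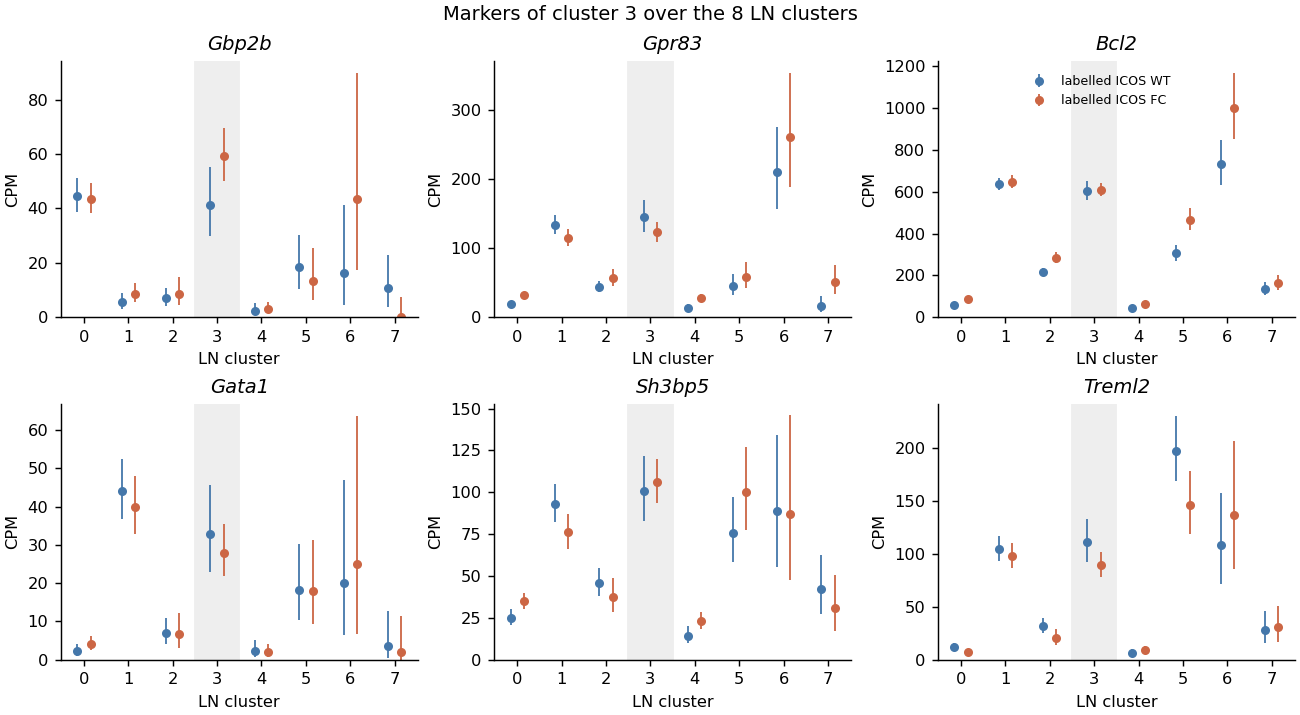
CPM of the 6 markers (vertical axes) in the 8 LN clusters (horizontal axes) in each library; bars are exact 95% Poisson intervals, which cover counting error only, and cluster 3 is shaded. Gpr83, Bcl2, Gata1, Sh3bp5 and Treml2 stand within 1.5-fold of each other in clusters 1 and 3, whereas Gbp2b stands at 41.1 and 59.1 CPM in cluster 3 and at 5.52 and 8.55 CPM in cluster 1.

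With each cell thinned to 2000 UMIs, 37.5% of 128 ICOS WT cells and 42.6% of 291 ICOS FC cells of cluster 3 carried UMIs of at least 2 of the 6 markers. The same held for 33.6% and 31.4% of cluster 1 and for 15.5% and 15.2% of all other LN cells together. No cell of cluster 3 carried more than 4 of the 6. Thinning left out 9 ICOS WT and 2 ICOS FC cells of cluster 3 as too shallow.

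Over 5299 genes, the CPM profile of cluster 3 was nearest to cluster 1 (Pearson r = 0.972), then to clusters 2 (r = 0.951) and 5 (r = 0.934), and farthest from cluster 6 (r = 0.846). These are correlations across genes of the same libraries and serve as a description. At the authors' coarser resolution of 0.5, 372 of the 430 cells (86.5%) and 786 of the 835 cells of cluster 1 formed 1 cluster. At resolution 0.8, 357 cells (83.0%) stayed together, with 110 cells of cluster 1 beside them. All LN cells were also clustered again from their UMIs. With all genes, 79.5% of cluster 3 and 92.9% of cluster 1 fell in 1 group; without Icos it was 81.2% of cluster 3 and 92.6%.

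Cluster 3 made up 7.22% of the ICOS WT cells (exact binomial 95% interval 6.10 to 8.48) and 14.2% of the ICOS FC cells (12.7 to 15.8), a ratio of 1.96. Genes that differ between the libraries could have helped to define the cluster, so this ratio is not read as a difference in abundance. After clustering again with all genes, the group that held most of cluster 3 took 29.8% and 32.8% of the 2 libraries, and after clustering without Icos 29.8% and 33.2%. The ratio was thus already lower with all genes, in a group that also took in most of cluster 1. After clustering without the 119 genes past the rule of size between the LN libraries, the group that held most of cluster 3 contained 47.2% of its cells and took 9.59% (8.31 to 11.01) and 13.4% (11.9 to 14.9).

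The cluster was defined from these same genes, so its differences from other clusters are a description. Against cluster 1, a gene counted by a rule of size: 20 CPM or more in a library, and in both libraries a 1.5-fold difference whose interval did not include equality. Of 5409 genes, 233 were higher in cluster 3 (4.31%) and 30 were lower (0.555%). Behind Gbp2b, the genes with the clearest difference were Apex1, a DNA repair endonuclease, Mettl1, a tRNA methyltransferase, the aminopeptidase gene Lap3, and Gar1, a part of small nucleolar ribonucleoproteins. Apex1 stood at 50.5 and 69.2 CPM against 11.4 and 16.4 CPM, and Mettl1 at 61.7 and 51.4 CPM against 13.5 and 12.5 CPM. Among abundant genes, Mif, the macrophage migration inhibitory factor, stood at 570 and 635 CPM against 232 and 259 CPM. Nucleolin (Ncl), a main protein of the nucleolus, stood at 783 and 786 CPM against 383 and 391 CPM, and Nme1, a nucleoside diphosphate kinase, at 419 and 483 CPM against 173 and 202 CPM. Srm, which makes spermidine, stood at 98.2 and 79.0 CPM against 17.6 and 30.6 CPM, and Mrto4, a ribosome assembly factor, at 86.0 and 96.4 CPM against 22.1 and 38.5 CPM.

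The 30 lower genes were led by Ly6c1, a surface protein of the Ly6 family, at 324 and 169 CPM in cluster 3 against 522 and 399 CPM in cluster 1. Ypel3 followed at 122 and 140 CPM against 212 and 218 CPM. Actn1, which encodes an actin-crosslinking alpha-actinin, Ddit4, an inhibitor of mTORC1, and Cdkn2d, an inhibitor of the G1 cyclin-dependent kinases, were lower as well. Ddit4 stood at 70.1 and 74.9 CPM against 112 and 123 CPM. The genes named against cluster 1 were picked after their values were seen, as those whose interval bound lay farthest from equality and others of known function.

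Against all other LN cells together, 44 of 5717 genes were higher in cluster 3 in both libraries (0.770%) and 449 were lower (7.85%). Only 6 of the 44 and 4 of the 449 also passed the rule in the same direction against cluster 1. The higher ones were led by Bcl2, Gpr83, Treml2, Sh3bp5 and Gata1. Gbp2 came next, at 374 and 384 CPM against 202 and 194 CPM elsewhere. It stood at 314 and 238 CPM in cluster 1 and was highest in cluster 5, at 485 and 671 CPM. Fam26f followed at 95.4 and 67.2 CPM against 49.6 and 34.5 CPM. Igfbp4, an insulin-like growth factor binding protein that marks naive T cells, stood at 258 and 209 CPM against 149 and 77.2 CPM. It was higher still in cluster 1, at 405 and 259 CPM, and in cluster 5, at 672 and 300 CPM. Tfap4, a transcription factor, stood at 25.2 and 18.6 CPM against 8.30 and 8.68 CPM. Among the 10 lower genes with the clearest difference, Gzmb, granzyme B, stood at 27.1 and 36.4 CPM against 1464 and 553 CPM, and the calcium-binding S100a6 at 25.2 and 90.3 CPM against 1234 and 1112 CPM. Areg, the growth factor amphiregulin, had 0 and 5 UMIs in cluster 3 and stood at 31.3 and 45.8 CPM elsewhere. Klrg1, an inhibitory receptor of terminally differentiated cells, had 0 and 13 UMIs, against 53.1 and 63.5 CPM elsewhere. Ifitm1, an interferon-induced membrane protein, had 0 and 1 UMI, against 95.2 and 31.8 CPM elsewhere.

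Over the 16 levels of 8 clusters in 2 libraries, and among 4740 genes, 5 genes followed the mean of the 6 markers most closely. They were Pik3ip1 (Pearson r = 0.912), an inhibitor of PI3K, Rab3ip (r = 0.910), the kinase gene Txk (r = 0.910), Ahcyl2 (r = 0.909) and Kbtbd11 (r = 0.904). These levels share libraries and cluster assignment, and the values are a description. In the spleen, cluster 0 was the nearest (r = 0.949), with Bcl2 at 821 and 685 CPM, Gpr83 at 114 and 92.1 CPM and Gata1 at 24.0 and 19.3 CPM. Gbp2b was at 1.47 and 1.04 CPM there, and no spleen cluster exceeded 28.0 CPM for it.

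Treg genes were detected in cluster 3. The 14 Treg identity genes summed to 3288 and 3548 CPM there, below the 5069 and 6602 CPM of the other LN cells. Foxp3 stood at 66.4 CPM under ICOS WT and 85.4 CPM under ICOS FC, Il2ra, the IL-2 receptor alpha chain, at 430 and 427 CPM, Ikzf2, the factor Helios, at 506 and 543 CPM, and Izumo1r, the folate receptor 4, at 580 and 640 CPM. Resting-cell genes were present too, with Ccr7 at 231 and 213 CPM and Klf2, which sustains homing receptors, at 466 and 511 CPM. Markers of other cell types were checked as well. Conventional CD4 T markers summed to 392 and 340 CPM in cluster 3 and to 308 and 202 CPM in the other LN cells, with Igfbp4 alone at 258 and 209 CPM in cluster 3. Of 7 erythroid markers, 0 were detected despite Gata1, and of 5 platelet markers only 1 UMI was seen. B cell markers summed to 72.0 and 69.2 CPM, most of it Cd74 at 66.4 and 53.4 CPM. Myeloid markers summed to 117 and 109 CPM, nearly all of it Cst3 at 108 and 102 CPM, and CD8 T and NK markers to 29.0 and 22.3 CPM.

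Icos itself was higher in the cluster 3 cells of the library labelled ICOS FC than in those of the library labelled ICOS WT. There were 72 UMIs in 47 ICOS WT cells (67.3 CPM) and 560 UMIs in 152 ICOS FC cells (227 CPM). The log2 ratio was 1.75, with an exact conditional Poisson 95% interval of 1.40 to 2.13 that covers counting error only. This goes against the label of a deficient genotype. The library reads 3' tags and the labels do not say which part of Icos (chr1:60977927-61000320) is deleted, so the level does not check the genotype, and every direction below is one between libraries as they are labelled. Icos stood higher under the ICOS FC label in each of the 8 LN clusters, for example at 1590 against 1163 CPM in cluster 0 and 95.9 against 59.7 CPM in cluster 1. Over all LN cells outside cluster 3 the log2 ratio was 0.71. The 5 richest cells held 20.8% of the ICOS WT and 31.8% of the ICOS FC UMIs of Icos, and 1 ICOS FC cell carried 59 of them. As a mean of each cell's CPM the log2 ratio was 0.60. Leaving out the 8 shared barcodes as well gave 1.66, and leaving them out of the summed UMIs gave 1.89.

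Foxp3, which defines the lineage, had a log2 ratio of 0.36 (-0.03 to 0.77), an interval that includes equality. Among cells in G1 it was 0.64 (0.21 to 1.09).

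Between the libraries, 261 of 5187 genes with at least 20 CPM were higher in cluster 3 under the ICOS FC label (5.03%) and 95 were lower (1.83%). The same rule of size was used, and the median log2 ratio of all 5187 genes was 0.04. Of the 261 and 95, 135 and 47 also had an interval on the same side in the other LN cells, and 28 and 5 had one on the opposite side. The share of all 5187 genes with such intervals in the other LN cells is not given here. These counts are therefore not read as agreement. Some of the higher genes rested on few cells: in 56 of 261, over 50% of the ICOS FC UMIs came from 5 cells, and 39 of the 261 were seen in under 30 ICOS FC cells. Among cells in G1, 157 of 5137 genes were higher (3.06%) and 86 lower (1.67%). The 261 and 95 genes included 96 and 54 of them. Without the 5% of cells with most UMIs, 138 were higher and 103 lower.

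**Figure D3:**
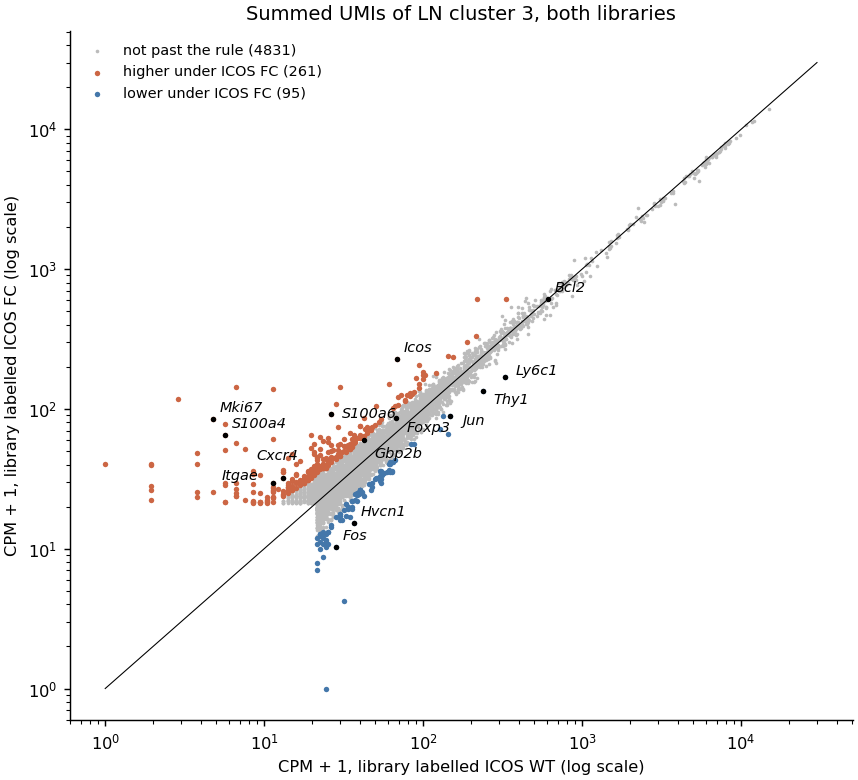
CPM + 1 of each gene with at least 20 CPM in a library, from the summed UMIs of cluster 3, under the ICOS WT label (horizontal, log scale) and the ICOS FC label (vertical, log scale); the line is equality and colours mark the 261 higher and 95 lower genes. Icos, Mki67 and S100a4 lie above the line, Fos, Jun, Hvcn1, Ly6c1 and Thy1 below it, and Bcl2 on it.

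Genes of cell division led the higher genes. Of the 14 proliferation genes listed, 12 were higher under the ICOS FC label and 0 lower. The median log2 ratio of the list was 2.92, beside 0.05 over all 8491 genes with at least 5 CPM, of which 4.92% were higher and 1.91% lower. Mki67, the proliferation antigen, had 4 UMIs in 4 ICOS WT cells (3.74 CPM) and 205 UMIs in 13 ICOS FC cells (83.0 CPM), a log2 ratio of 4.47 (3.09 to 6.36). Hist1h1b, a linker histone, had 2 UMIs in 1 cell against 287 UMIs in 11 cells, and Top2a, the mitotic topoisomerase, 11 UMIs in 10 cells against 342 UMIs in 27 cells. Cenpf, a centromere protein, had 0 UMIs against 97 in 8 cells and was at least 14.0-fold higher against a floor of 3 UMIs in the library. Pclaf, Hist1h2ap, Cdk1, Birc5, Nusap1, Hmmr and Tpx2, all genes of replication or mitosis, were the others of the 12 highest besides S100a4. Each of these 7 drew at least 80.1% of its ICOS FC UMIs from 5 cells.

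These UMIs came from a handful of large cells. Under ICOS FC, 10 cells held 65.2% of the 4500 UMIs of the 14 genes; they had 14475 to 54754 UMIs each, and 5 were in S, 5 in G2M and 0 in G1. Under ICOS WT, the 10 richest cells held 32.4% of 971 UMIs and had 9148 to 24247 UMIs each, with 5 in G1, 5 in S and 0 in G2M. The authors' phase call uses genes of division, so keeping G1 cells selects against them. In G1 cells the list summed to 757 and 687 CPM, 8 of the 14 genes had 5 CPM or more, 0 were higher or lower, and the median log2 ratio was -0.11. Whether doublets are among these cells was not tested.

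**Figure D4:**
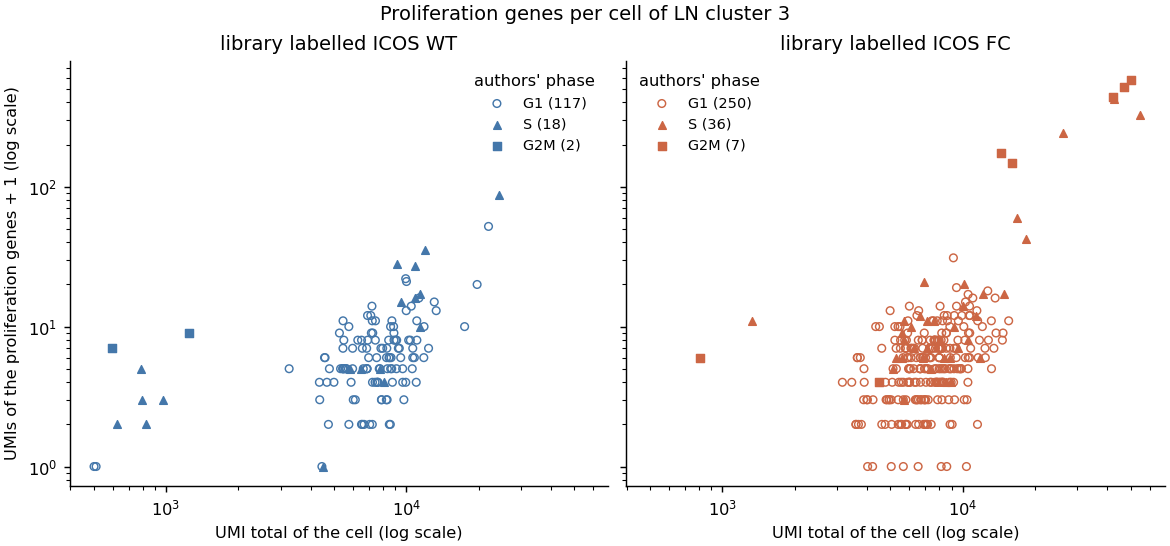
UMIs of the 14 proliferation genes + 1 (vertical axis, log scale) against the UMI total (horizontal axis, log scale) of each cell of cluster 3, with markers for the authors' phase call. In the library labelled ICOS FC, 10 cells with 14475 to 54754 UMIs carry 65.2% of these UMIs, and the ICOS WT library has no cell beyond 24247 UMIs.

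Effector Treg genes were higher in part. Of 17 measured members of 20, 11 were higher under the ICOS FC label and 0 lower, and the median was 1.10. Among all 8491 genes with at least 5 CPM, 4.92% were higher and 1.91% lower. S100a4, a calcium-binding protein of activated and migrating cells, had 5 UMIs in 4 ICOS WT cells and 158 UMIs in 16 ICOS FC cells, a log2 ratio of 3.77 (2.52 to 5.42), with 88.0% of the ICOS FC UMIs in 5 cells. S100a6 stood at 25.2 against 90.3 CPM, a log2 ratio of 1.84 (1.26 to 2.47), which was 2.001 without shared barcodes and -0.069 as a mean of each cell's CPM. S100a11 stood at 68.3 against 120 CPM (0.82), Itgae, the integrin CD103, at 10.3 against 28.3 CPM (1.46), and Maf, a transcription factor of IL-10-producing cells, at 81.3 against 123 CPM (0.60). Gzmb had 27.1 and 36.4 CPM with an interval that includes equality, but without shared barcodes its log2 ratio was 0.75 (0.08 to 1.48), past the rule. In G1 cells 2 of 15 members were higher and 2 lower, with a median of 0.43, where 2.81% of all 8406 genes were higher and 1.78% lower. Lgals1, galectin 1, changed sign with the cells used: its log2 ratio was 0.30 (0.08 to 0.52) over all cells and -0.70 (-0.98 to -0.42) in G1, and 56.1% of its ICOS FC UMIs came from 5 cells.

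Receptors for adhesion and migration were the third list with several higher members. Of 15 measured, 5 were higher and 0 lower, with a median of 0.30. Among all 8491 genes with at least 5 CPM, 4.92% were higher and 1.91% lower. Itgb1, the beta-1 integrin, stood at 72.0 against 124 CPM, a log2 ratio of 0.78 (0.42 to 1.16), and at 0.61 (0.21 to 1.02) in G1. Cxcr4, the receptor for CXCL12, stood at 12.2 against 31.2 CPM (1.36, 0.50 to 2.33), spread over 54 ICOS FC cells. Ccr7 and S1pr1, which steer cells into and out of lymph nodes, had log2 ratios of -0.12 and -0.09 with intervals that include equality. In G1 2 of 15 were higher and 0 lower, beside 2.81% and 1.78% of all 8406 genes.

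Among the 14 Treg identity genes 1 was higher, Nrp1, neuropilin 1, at 48.6 against 76.1 CPM (0.65, 0.20 to 1.12). Among cells with a Foxp3 UMI Nrp1 stood at -0.18 (-0.87 to 0.55). Of all 8491 genes with at least 5 CPM, 4.92% were higher and 1.91% lower. Ctla4, the inhibitory receptor, stood at 194 against 242 CPM (0.32) and missed the 1.5-fold limit. Of 11 costimulatory and inhibitory receptors measured, 2 were higher, Icos and Tnfrsf1b, the TNF receptor 2, at 17.8 against 35.2 CPM (0.99, 0.26 to 1.79). Btla, an inhibitory receptor, was lower at 36.5 against 23.5 CPM (-0.63, -1.25 to -0.01). The 13 resting and homing genes had 0 higher and 0 lower, and the 6 markers of the cluster likewise; Lef1, a factor of naive and resting T cells, was nearest to the limit at 209 against 158 CPM (-0.41, -0.65 to -0.16). Of 12 genes of IL-2 receptor and STAT5 signalling, 0 were higher or lower.

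AP-1 subunits, transcription factors induced within minutes of stimulation, lay lower under the ICOS FC label. Of 7 measured, 3 were lower and 0 higher, and the median was -0.44. Among all 8491 genes with at least 5 CPM, 1.91% were lower and 4.92% higher. Fos had 29 UMIs in 17 cells against 23 UMIs in 13 cells, that is 27.1 against 9.31 CPM (-1.54, -2.40 to -0.70). Fosb stood at 22.4 against 7.69 CPM (-1.54, -2.49 to -0.61) and Jun at 146 against 87.5 CPM (-0.74, -1.04 to -0.43). In G1 Fos and Fosb passed the rule and Jun stood at -0.52, short of 1.5-fold. With cells thinned to 2000 UMIs Jun stood at 0.056 (-0.69 to 0.85). Fos and Jun are also genes that cell dissociation induces: of 10 measured members of a dissociation list 2 were lower, these same 2, and its part in the result was not tested. Of 7 early genes of T cell receptor signalling measured, 2 were lower and 1 higher. Egr1 stood at 29.0 against 16.2 CPM (-0.84, -1.55 to -0.11), but at 0.87 (-0.54 to 2.605) among cells with a Foxp3 UMI. Nr4a1 had 11 UMIs against 9 (-1.50, -2.95 to -0.09), and Irf4 had 8 UMIs against 46 (1.32, 0.22 to 2.61). Fos, Jun and Egr1 had log2 ratios of -1.10, -0.98 and -0.54 in the other LN cells.

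In 5 of the 95 lower genes, over 50% of the ICOS WT UMIs came from 5 cells. Med10, a Mediator subunit, stood at 142 against 65.2 CPM (-1.12, -1.45 to -0.79), and at -1.14 in the other LN cells. Ly6c1 stood at 324 against 169 CPM (-0.94, -1.15 to -0.73), Thy1, the surface protein CD90, at 237 against 132 CPM (-0.84, -1.08 to -0.59), and Hvcn1, a proton channel, at 35.5 against 14.2 CPM (-1.33, -2.03 to -0.62). Nrn1, Dpy19l1, Ms4a4c and Hectd4 completed the 12 lowest with Fos and Fosb. With cells thinned to 2000 UMIs Hectd4 stood at 0.23 (-1.83 to 2.78). Nrn1 had 22 UMIs in 11 ICOS WT cells, 72.7% of them in 5 cells. Fewer cells still carried Bpifa2, a secreted protein of the salivary gland, with 25 UMIs in 4 ICOS WT cells and 0 under ICOS FC. Bpifa2 was at least 19.2-fold lower against a floor of 3 UMIs. Olfr1369-ps1 has the symbol of an olfactory receptor pseudogene but is annotated as protein-coding. It had 33 UMIs in 3 cells against 8 UMIs in 3 cells. Bpifa2 stood at 2.44 to 20.1 CPM in the other ICOS WT clusters, and the part of RNA from other tissue was not tested.

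Few interferon-induced genes of cluster 3 passed the rule between the libraries. Of all 8491 genes with at least 5 CPM, 4.92% were higher and 1.91% lower. Of 16 type I interferon-stimulated genes 0 were higher or lower, and their sum was 7206 against 5901 CPM. An interval lay below equality in 4 of them and above it in 0. The 4 included Ifi27l2a at 3818 against 2937 CPM (-0.38), Usp18 at 122 against 93.9 CPM (-0.38) and Bst2 at 588 against 468 CPM (-0.33). Of 16 interferon-inducible GTPases 2 were lower, Gbp9 at 83.2 against 55.1 CPM (-0.60, -0.99 to -0.19) and Tgtp1 at 49.6 against 31.2 CPM (-0.67, -1.19 to -0.14), and in G1 both stood short of 1.5-fold. Gbp2b had a log2 ratio of 0.52 (0.03 to 1.04) and Gbp2 of 0.04 (-0.13 to 0.21), so neither of the neighbours with the printed promoters passed the rule over all cells. In G1 Gbp2b stood at 0.64 (0.14 to 1.17), past the 1.5-fold limit, and Gbp2 at 0.19. In the BCL2 family 1 of 10 was lower, Bcl2a1b at 62.6 against 34.4 CPM (-0.86, -1.34 to -0.38), while Bcl2 itself had a log2 ratio of 0.01 (-0.12 to 0.15). Bcl2a1b has near-identical copies in the genome, so its count is uncertain.

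The remaining lists held few called members, beside 4.92% higher and 1.91% lower among all 8491 genes with at least 5 CPM. Of 9 suppressive molecules measured 1 was higher, the decoy receptor gene Il1r2, with 0 UMIs against 13 in 6 cells. Follicular Treg genes (4 measured), GATA factors with their partners (3), conventional CD4 T markers (4) and B cell, myeloid and stromal markers (2, 1 and 1) had 0 higher and 0 lower. Of 2 CD8 T and NK markers 1 was lower, Nkg7, a granule membrane protein, with 11 UMIs against 8 (-1.67, -3.18 to -0.22).

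**Figure D5:**
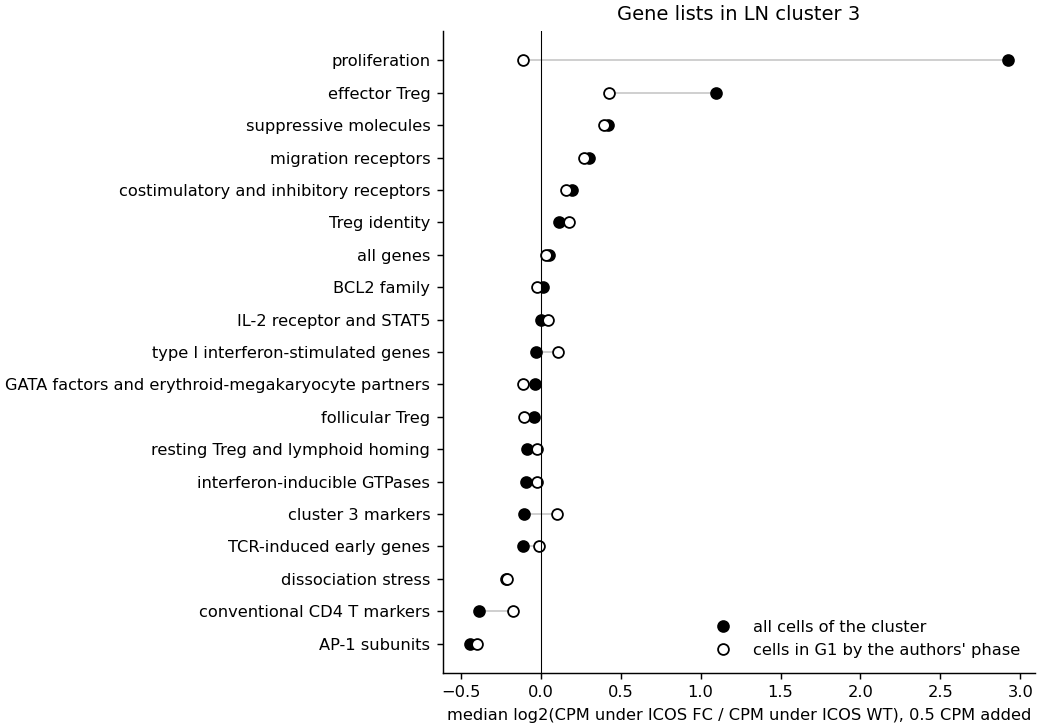
Median log2 ratio of the CPM under the ICOS FC label to that under ICOS WT (horizontal axis, 0.5 CPM added), for each gene list (vertical axis) over all cells of cluster 3 (filled) and over cells in G1 (open). The proliferation list moves from 2.92 to -0.11 and the effector Treg list from 1.10 to 0.43, while the AP-1 list stays at -0.44 and -0.40.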

How the data were processed

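Single-cell 3' gene expression was measured with version 3.1 chemistry from 10x Genomics, 1 library per group, with 12000 cells prepared, per the labels' protocols. The build GRCm38.p6 (mm10), Seurat 3.0, R 3.6.1 and Cell Ranger 4.0.0 are named in the submitters' processing notes with no role; doublet treatment is not given. The authors deposited expression on a natural log scale: each cell's UMIs were scaled to 10000 and 1 was added before the log, judged by the values. Per the file headers, the authors' cell table lists the UMI count and the number of genes detected of every cell, the percent of mitochondrial counts, a phase and cluster numbers. Cells had at least 500 UMIs and at most 9.99% mitochondrial counts as deposited; no further filter was applied, and 0 columns were left unmapped.

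The log values were turned back into UMIs; 100% of 8798056 LN values were whole within 0.001, and all 3963 cell totals matched. Summed UMIs gave CPM, and log2 ratios carry exact conditional Poisson 95% intervals that treat UMIs as independent, so they are too narrow for genes whose UMIs sit in few cells. Shares carry exact (Clopper-Pearson) intervals. With 1 library per group no test was run. The rule of size was at least 20 CPM in a library, 1.5-fold and an interval that leaves out equality. List members needed 5 CPM in place of 20, and list medians had 0.5 CPM added.

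The members, the 24 gene lists and the rules were chosen with earlier results of these data known. Named genes were Icos, Foxp3, the 6 markers, the 12 highest and 12 lowest between the libraries and the 15 highest and 10 lowest against the other LN cells by interval bound, and per list up to 4 members or any at 100 CPM. Receptor segments, haemoglobin, mitochondrial, sex-linked and unnamed gene models stayed out, and some genes that the rule names are left out of the text. The ratio script was tested on simulated data. Cells were clustered again from 2000 variable genes and 20 components with leidenalg 0.10.2 at resolution 0.6 (seed 1), and thinning used 2000 UMIs. Python 3.11.15, numpy 2.4.6 and scipy 1.17.1 were used. Alternatives covered scaling, thresholds, cells kept and weighting; leaving out shared barcodes, clustering again with all genes, keeping G1 cells and keeping cells that also cluster together at resolution 0.8 were added after seeing the data.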

Additional observations from a re-analysis of the deposited data

Results flagged for a closer look

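Of all genes past the rule of size, 28 higher and 5 lower ones had an interval on the opposite side in the remaining LN cells. Among the named genes there were 2 such genes, with both intervals clear of equality. S100a4 had a log2 ratio of 3.77 (2.52 to 5.42) in cluster 3, ICOS FC label over ICOS WT, and -0.41 (-0.46 to -0.37) elsewhere. S100a6 had 1.84 (1.26 to 2.47) and -0.15 (-0.18 to -0.12). In cluster 3, 5 cells gave 88.0% of the S100a4 and 63.7% of the S100a6 UMIs under ICOS FC. Among G1 cells the values in cluster 3 were 1.12 (-0.32 to 2.87) and 0.43 (-0.22 to 1.13). As a mean of each cell's CPM, S100a6 in cluster 3 stood at -0.069. With 1 library per group the difference between the ratios was not tested.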

How the results depend on the processing

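No paired analysis was possible because each group is 1 library, and for the same reason no replicate could be left out. The 261 higher genes of cluster 3 became 144 after thinning to 2000 UMIs, 138 without the largest 5% of cells, 157 in G1 cells and 143 in cells that also shared a cluster at resolution 0.8, of which 48, 93, 96 and 84 were among the 261. The 95 lower genes were again 95 after thinning, but only 20 were the same genes. A minimum of 50 CPM left 96 higher and 27 lower, no minimum gave 429 and 170, and 2-fold left 104 and 20. Totals without ribosomal protein and mitochondrial genes gave 157 lower genes, and the mean of each cell's CPM, called by size alone, gave 428, or 203 also without shared barcodes. The log2 ratio of Icos was 1.39 both without the largest 5% of cells and at resolution 0.8, and 0.60 as a mean of each cell's CPM. The 1.96-fold share became 1.10 when cells were clustered again with all genes, 1.11 when Icos was kept out and 1.39 when all genes past the rule of size were kept out. Against the other LN cells, 44 higher genes became 27 after thinning, 19 with clusters weighted equally and 233 against the nearest cluster. Of these, 13, 16 and 6 were among the 44. The 449 lower genes became 264 after thinning and 30 against the nearest cluster, of which 199 and 4 were among the 449.

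Of 1717 values of single named genes under the alternatives, 1498 stayed inside the main interval, 203 moved outside it and 16 changed sign after passing the rule of size. Without the largest 5% of cells, Hist1h1b stood at -0.13 (-2.93 to 3.34) and Birc5 at -2.45 (-5.84 to 0.16). Hmmr stood at -1.13 (-7.42 to 5.17) and Stmn1 at -0.78 (-1.84 to 0.30) there. In G1 cells Mki67 stood at -0.44, Birc5 at -2.02, Hmmr at -1.02 and Stmn1 at -0.81. In cells kept together at resolution 0.8, Birc5 stood at -2.36, Hmmr at -1.04 and Stmn1 at -1.04. After thinning Hectd4 stood at 0.23 and Jun at 0.056, in cells with a Foxp3 UMI Nrp1 stood at -0.18 and Egr1 at 0.87, and as a mean of each cell's CPM S100a6 stood at -0.069. Apart from S100a6, which has no interval in that setting, each of these values had an interval that includes equality. None is therefore a clear change of direction, and the cause was not tested. TMM and median-ratio scaling shifted all ratios by 0.05 and 0.04 and moved none of the named genes outside its interval. The depth of 1069567 UMIs under ICOS WT limits genes near 2.80 CPM.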
